A study of Homo sapiens with 12 samples.

Results

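In cells of the chronic myeloid leukemia line K562, 755 of the 5621 PHF19 peaks of control cells had an MTF2 peak after PHF19 depletion and none before it. They were chosen by peak positions: PHF19 peaks of control cells (shCT) that shared at least 1 bp with an MTF2 peak of depleted cells (sh#2) and no base with an MTF2 peak of shCT. They made up 13.4% of all PHF19 peaks (exact 95% interval 12.6 to 14.4%), and 25.6% (24.0 to 27.2%) of the 2950 PHF19 peaks with no MTF2 peak in shCT. These shares follow from that choice and are a description. The other PHF19 peaks were 2671 with an MTF2 peak in shCT, of which 2476 also had one in sh#2, and 2195 with no MTF2 peak in either list. Members that gained MTF2 are called gained peaks here, although a gain means only that a peak was listed in sh#2 and not in shCT.

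PHF19 and MTF2 are Polycomb-like proteins. They are accessory subunits of Polycomb repressive complex 2 (PRC2), which methylates histone H3 on a lysine and keeps developmental genes silent. Polycomb-like proteins bind DNA that contains unmethylated CpG dinucleotides through a winged-helix domain and bind methylated histone H3 through a Tudor domain, and both properties help to bring PRC2 to CpG islands. PHF19 and MTF2 take the same place in the complex, so that a complex holds either of them.

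The K562 cells were infected with the empty hairpin vector (shCT) or with an shRNA against the long isoform of PHF19 (sh#1 or sh#2), and were selected with puromycin. K562 is 1 established line with erythroid features, and all groups share its background. ChIP-seq with antibodies to PHF19, in shCT, and to MTF2, in shCT and sh#2, gave 1 peak list each from 1 library each. RNA-seq comprised 6 libraries, 2 for each of shCT, sh#1 and sh#2. The hairpin sh#2 was the only depletion with an MTF2 list, so an effect of that hairpin alone cannot be told apart from depletion. PHF19 itself was mapped in shCT only in the lists used here, and whether PHF19 left the gained peaks was not tested. The study kept a smaller set of PHF19 peaks, by a minimum of tags that this list does not give. Gained peaks had a median PHF19 rank of 3198 of 5621, and how many of them are in that set was not tested. Peaks of 1 library are not replicates, so no class of peaks was tested against another, and every interval covers counting error only. In the RNA-seq table, 11 genes of erythroid cells or the BCR-ABL1 fusion had mean normalized counts of 4449 (BCR) to 171752 (HBG2). Of 8 genes of other lineages, 7 had 0 to 68.2, and EPCAM, an epithelial adhesion protein, had 3071. PHF19 had 7797 and MTF2 2797.

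The central 300 bp of gained peaks at promoters, inside genes and between genes are printed as examples of the DNA that was compared, and the medians of each class follow with the results. A promoter is here the 2.5 kb on either side of a transcription start site (TSS). The sequences are the plus strand of GRCh37 (hg19), high-scoring peaks of each place that avoid UTRs, with every CpG in capitals. The centre of the gained peak at the TMCC2 promoter, chr1:205195511-205195810, held 4 CpG, and that of the gained peak at the TTBK1 promoter, chr6:43212190-43212489, also held 4.
TMCC2: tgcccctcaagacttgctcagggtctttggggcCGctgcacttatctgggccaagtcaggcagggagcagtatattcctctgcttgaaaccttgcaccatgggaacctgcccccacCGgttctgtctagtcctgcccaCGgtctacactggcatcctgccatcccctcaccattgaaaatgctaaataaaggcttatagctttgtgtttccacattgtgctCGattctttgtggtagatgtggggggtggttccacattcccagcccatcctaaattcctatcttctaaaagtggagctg
TTBK1: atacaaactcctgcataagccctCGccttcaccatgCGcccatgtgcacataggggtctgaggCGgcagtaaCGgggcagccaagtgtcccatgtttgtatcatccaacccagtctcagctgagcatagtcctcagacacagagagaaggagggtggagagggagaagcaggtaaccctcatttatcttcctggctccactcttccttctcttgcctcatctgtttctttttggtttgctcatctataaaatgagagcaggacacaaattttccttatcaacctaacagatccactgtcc

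Inside genes, the centre of the gained peak in NRXN2, chr11:64443935-64444234, held 3 CpG. The one in SKAP1, chr17:46242420-46242719, held 2.
NRXN2: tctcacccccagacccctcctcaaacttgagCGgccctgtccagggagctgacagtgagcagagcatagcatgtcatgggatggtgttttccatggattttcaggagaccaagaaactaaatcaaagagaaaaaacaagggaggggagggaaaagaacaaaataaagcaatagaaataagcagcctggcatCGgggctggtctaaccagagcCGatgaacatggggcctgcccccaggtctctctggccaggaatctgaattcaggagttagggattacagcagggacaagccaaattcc
SKAP1: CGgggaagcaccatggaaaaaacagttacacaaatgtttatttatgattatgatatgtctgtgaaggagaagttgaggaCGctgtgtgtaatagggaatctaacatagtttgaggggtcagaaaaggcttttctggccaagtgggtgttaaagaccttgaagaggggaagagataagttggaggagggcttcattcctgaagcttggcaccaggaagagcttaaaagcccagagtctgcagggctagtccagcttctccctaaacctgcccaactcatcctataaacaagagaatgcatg

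Between genes, the gained peak 44.2 kb from the TSS of CDCA7 held 4 CpG at its centre, chr2:174265233-174265532.
CDCA7: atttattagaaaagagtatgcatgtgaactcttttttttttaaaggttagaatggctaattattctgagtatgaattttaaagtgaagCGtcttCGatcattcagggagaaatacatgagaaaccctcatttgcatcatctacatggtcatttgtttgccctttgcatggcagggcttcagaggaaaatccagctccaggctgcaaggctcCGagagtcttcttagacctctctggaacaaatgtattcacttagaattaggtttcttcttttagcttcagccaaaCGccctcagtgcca

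For comparison, the centre of the HEY2 promoter peak, which had MTF2 in shCT, is chr6:126069543-126069842 and held 16 CpG. The centre of the PRKD3 promoter peak, which had no MTF2 in either list, is chr2:37552496-37552795 and held 10. The medians over the central 300 bp were 13.3 CpG per kb for gained peaks, 23.3 for peaks with MTF2 in shCT and 10.0 for those with none. The HEY2 and PRKD3 windows both lie well above the medians of their classes and are not typical of them. All of these are centres of the PHF19 peak, and the TMCC2 window lies outside the sh#2 MTF2 peak, which covered 31.1% of that PHF19 peak.
HEY2: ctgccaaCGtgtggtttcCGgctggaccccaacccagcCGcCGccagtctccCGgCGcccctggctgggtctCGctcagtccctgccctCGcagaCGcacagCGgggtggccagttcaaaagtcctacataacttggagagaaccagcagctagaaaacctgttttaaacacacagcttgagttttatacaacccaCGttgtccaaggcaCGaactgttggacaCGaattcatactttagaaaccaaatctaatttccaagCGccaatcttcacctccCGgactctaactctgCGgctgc
PRKD3: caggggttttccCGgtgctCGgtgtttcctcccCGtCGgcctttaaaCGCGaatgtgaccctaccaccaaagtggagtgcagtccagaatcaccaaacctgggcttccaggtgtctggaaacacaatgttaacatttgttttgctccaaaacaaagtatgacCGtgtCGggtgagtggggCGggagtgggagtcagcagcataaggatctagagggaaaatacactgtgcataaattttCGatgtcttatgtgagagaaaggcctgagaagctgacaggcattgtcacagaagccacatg

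The MTF2 list of sh#2 was larger than that of shCT, and not at PHF19 peaks alone. It held 18287 peaks over 63.2 Mb, with a median width of 2598 bp, against 12502 peaks over 29.0 Mb and 1780 bp in shCT. Of the sh#2 peaks, 53.1% (9702, 52.3 to 53.8%) shared no base with an shCT peak, and 6.22% of those (603) lay over a PHF19 peak. PHF19 peaks with an MTF2 peak in shCT and none in sh#2 numbered 195, or 3.47% (3.01 to 3.98%) of all and 7.30% (6.34 to 8.35%) of the 2671 with MTF2 in shCT. Of all shCT MTF2 peaks, 2099 (16.8%, 16.1 to 17.5%) had no sh#2 peak. The lists carry no tag counts, so depth is unknown, and the part of depth or of the peak threshold in the larger list was not tested. With the sh#2 list limited to the 12502 peaks of highest score, 550 PHF19 peaks had gained MTF2.

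Gained peaks were covered well by MTF2 peaks that scored near the middle of the sh#2 list. In all, 744 sh#2 peaks lay over them: 735 gained peaks had 1 such peak, 20 had more, and 60 shared theirs with another gained peak. Of the 755, 389 lay wholly under sh#2 MTF2 peaks, 689 for at least 50% of their length, and 15 for under 10%. The score is a number in the name of each deposited peak that the methods do not define, and it was used only to rank peaks within a list. It had a median of 113 (106 to 121) for the sh#2 peaks over gained PHF19 peaks. The median of the whole sh#2 list was 112, and 379 of the 755 had a score at or over it. Over PHF19 peaks that already had MTF2 the median was 433 (413 to 453). The median rank over gained peaks was 9086 of 18287, and 17 gained peaks were under an MTF2 peak among the 1000 of highest score. The MTF2 peaks were 2874 bp wide at the median over gained peaks and 4964 bp over those with MTF2 in shCT.

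New MTF2 peaks over PHF19 peaks stood a little above the other new MTF2 peaks. The 603 new sh#2 peaks over a PHF19 peak had a median score of 92.5 (87.7 to 98.8) and a median width of 2339 bp, against 77.7 (76.8 to 78.6) and 1974 bp for the 9099 new peaks elsewhere. A wider sh#2 peak meets a PHF19 peak more readily, so this split favours width. The new peaks over PHF19 peaks were poorer in GC, with 48.0% against 51.3% in their central 300 bp. Their median gap to the nearest shCT MTF2 peak was 10028 bp (8037 to 12693) against 12037 bp (11586 to 12655).

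**Figure D1:**
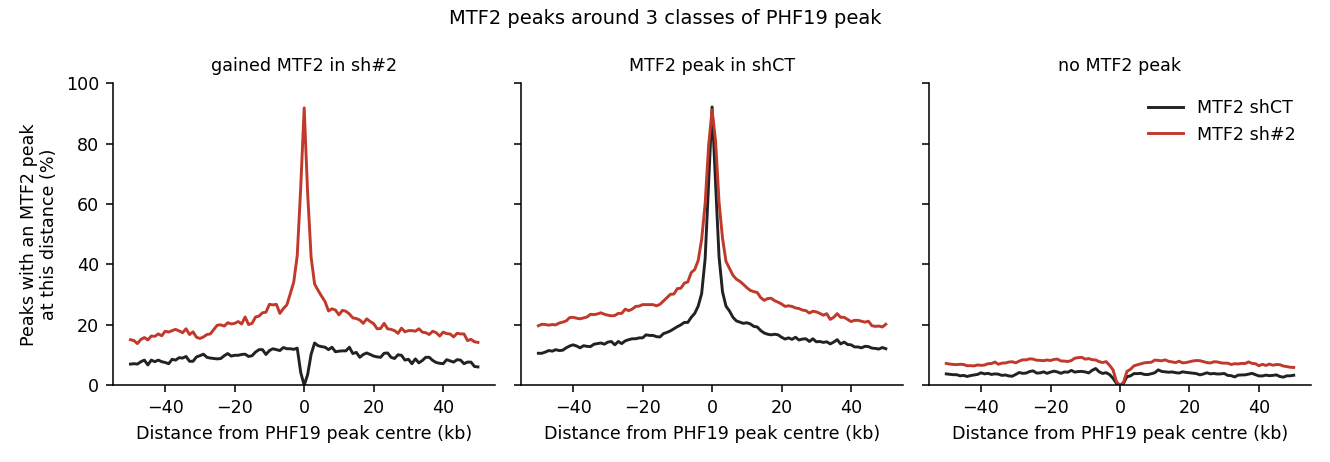
Share of PHF19 peaks (%) with an MTF2 peak at each distance (kb) from the PHF19 peak centre, in shCT (black) and sh#2 (red), for the 3 classes of PHF19 peak, which the centre of each panel reflects by construction. Around gained peaks the shCT line was at 14.0% at 3 kb and the sh#2 line at 33.5%, against 3.10% and 5.28% around peaks with no MTF2. The sh#2 peaks over gained peaks were 2874 bp wide at the median (upper quartile 4654), so the choice also bears on the lines at 3 kb.

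As PHF19 sites, the gained peaks were weaker and narrower than those with MTF2 in shCT. Their median PHF19 score was 67.6 (65.3 to 69.4), against 90.4 (87.8 to 93.2) for peaks with MTF2 in shCT and 63.8 (63.0 to 64.5) for those with none. Of the 755, 324 reached the median score of the whole list, 72.3. Their median width of 1561 bp (1478 to 1608) also lay between 2132 bp and 1229 bp. None of these 3 intervals overlapped another, for score or for width.

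**Figure D2:**
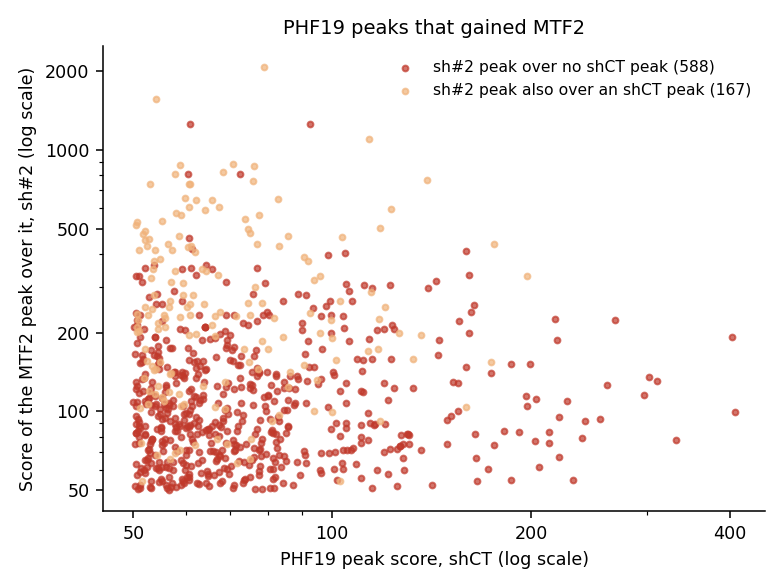
PHF19 peak score in shCT against the score of the MTF2 peak over it in sh#2 (both log scale), 1 point for each of the 755 gained peaks, in red where the sh#2 peak touched no shCT MTF2 peak (588) and in orange where it did (167). The highest PHF19 scores, at NRXN2 (407.33) and TMCC2 (403.74), lie over sh#2 scores of 99.26 and 193.17.

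Gained peaks lay closer to shCT MTF2 peaks than PHF19 peaks with no MTF2 did. Both classes were chosen by MTF2 peak positions, which bounds this distance, so the values here are a description. The nearest shCT MTF2 peak was 6401 bp away at the median (5061 to 7724, quartiles 1332 and 31456 bp), and 45166 bp away (38610 to 51420) for PHF19 peaks with no MTF2. Within 1 kb of an shCT MTF2 peak, 161 of 259 PHF19 peaks had gained MTF2, or 62.2% (56.0 to 68.1%). The share was 41.8% at 1 to 5 kb, 26.9% at 5 to 20 kb, 21.9% at 20 to 50 kb and 14.2% at 50 to 200 kb. Beyond 200 kb it was 10.4% (8.10 to 13.2%, 62 of 594). Each of these is to be read against the 25.6% of all PHF19 peaks with no shCT MTF2.

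For 167 gained peaks (22.1%, 19.2 to 25.3%), the sh#2 MTF2 peak also reached over an shCT MTF2 peak beside them. These had a median gap of 543 bp to the shCT peak and a median sh#2 score of 235 (214 to 264). For the other 588 the medians were 11911 bp (10013 to 15041) and 96.2 (90.4 to 105). That gap was close to the 12037 bp (11586 to 12655) of new sh#2 MTF2 peaks with no PHF19 peak, measured from the MTF2 peak. The score belongs to the whole sh#2 peak, so for the joined 167 it includes the part over the shCT peak. GC content was close in both kinds, at 46.0% (45.4 to 47.1) and 45.7% (45.1 to 46.3).

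**Figure D3:**
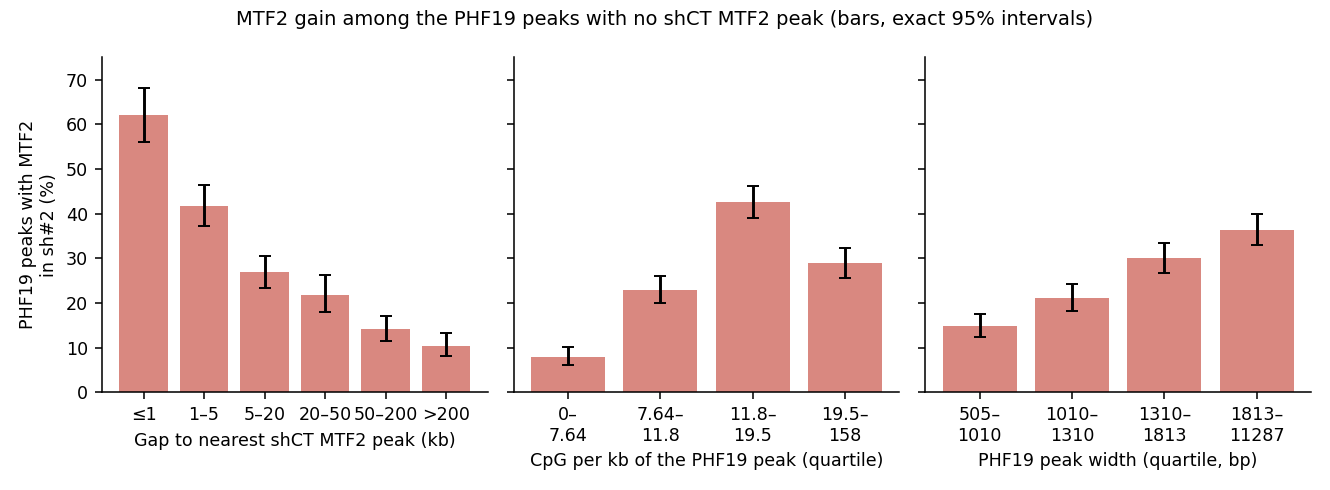
Share of PHF19 peaks with no shCT MTF2 peak that had gained MTF2 in sh#2 (%, bars, with exact 95% intervals), by gap to the nearest shCT MTF2 peak (kb) and by quartile of CpG per kb and of peak width (bp). The share fell from 62.2% within 1 kb to 10.4% beyond 200 kb. It was highest in the third CpG quartile (42.6%) and rose from 14.8% to 36.4% with width. A wider peak meets the 1 bp rule more readily, and the gap is bounded by the choice of peaks.

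Base composition of the gained peaks was intermediate. Their median GC content was 45.8% (45.4 to 46.3), against 52.5% (52.1 to 52.8) for peaks with MTF2 in shCT and 42.6% (42.3 to 43.0) for peaks with none. CpG dinucleotides numbered 14.6 per kb (14.1 to 15.4), against 26.4 and 10.5. The order was the same in the central 300 bp, a window that does not depend on peak width, where median GC was 46.3% (45.3 to 47.3), 53.0% and 43.7%. A CpG-island-like window (200 bp with over 50% GC and an observed over expected CpG ratio above 0.6) was present in 38.1% of gained peaks (34.7 to 41.7%), 73.5% of those with MTF2 in shCT and 28.7% of those with none. Wider peaks hold more such windows, and the widths differed as given above.

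Among PHF19 peaks with no shCT MTF2, the gain was most frequent at intermediate CpG content. It was 7.87% (6.03 to 10.1%) in the lowest quartile of CpG per kb, 22.9% in the next, 42.6% (39.0 to 46.3%) in the third, which spans 11.8 to 19.5 CpG per kb, and 29.0% (25.7 to 32.4%) in the highest. GC content gave shares of 12.3, 20.9, 39.1 and 30.1% from the lowest to the highest quartile. GC content and distance both went with the share. Within 20 kb of an shCT MTF2 peak, 50.3% (46.5 to 54.1%) of peaks at or over the median GC had gained MTF2 and 26.4% (23.1 to 30.0%) of those under it. Beyond 200 kb these shares were 16.3% (12.1 to 21.2%) and 5.35% (3.14 to 8.42%). PHF19 score separated less, with 21.8, 24.2, 24.0 and 32.4% from the lowest to the highest quartile.

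Promoters and other places differed in this respect. Away from promoters, 42.4% (37.7 to 47.3%) of peaks with a CpG-island-like window had gained MTF2 and 22.5% (20.6 to 24.5%) of those without. At promoters the shares were 21.7% (18.1 to 25.6%) with such a window and 26.8% (21.1 to 33.1%) without, and their intervals overlapped. Gained promoter peaks had a median GC of 49.3% (47.3 to 51.5), whereas promoter peaks with no MTF2 in either list had 54.3% (53.3 to 55.5) and promoter peaks with MTF2 in shCT 56.7% (56.1 to 57.4). Their CpG observed over expected ratio was 0.433 (0.353 to 0.498), against 0.703 and 0.619. The gained class was thus the lowest of the 3 in CpG at promoters, and between the other classes elsewhere. Gained promoter peaks also lay farther from the TSS, at a median of 347 bp (1 to 548), against 0 bp in both other classes. Composition at a matched distance from the TSS was not tested.

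**Figure D4:**
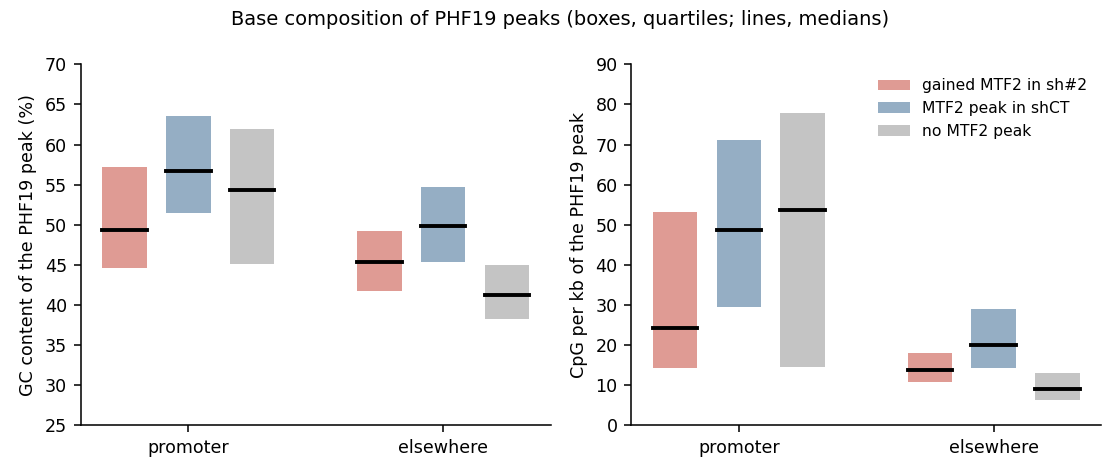
GC content (%, left) and CpG per kb (right) of PHF19 peaks at promoters and elsewhere, for the 3 classes, as boxes from the lower to the upper quartile with the median as a line; the GC axis starts at 25%. Gained peaks (red) had the lowest median at promoters (49.3% GC) and the middle one elsewhere (45.3%).

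Short motifs were searched in the central 300 bp, on both strands. CGCG, which consists of CpG, was found in 15.6% of gained peaks (13.1 to 18.4%), 33.7% of peaks with MTF2 in shCT, 17.7% of those with none and 22.3% of all sh#2 MTF2 peaks. It was found in 58.8% of windows of the same length around all TSSs. AGATAA, a form of the GATA factor motif, was found in 17.1% of gained peaks (14.5 to 20.0%), against 12.0% (10.8 to 13.3%), 20.6% (19.0 to 22.4%), 10.2% and 8.07% of those same sets. GAGAGA was found in 23.7, 23.3 and 23.4% of the 3 classes of PHF19 peak and in 22.3% of the TSS windows. CACGTG, an E-box that holds a CpG, was found in 3.84% of gained peaks and in 7.92% of the TSS windows. The AP-1 motif TGACTCA was found in 4.50% and 4.02%. CCACACCC, a KLF factor motif, was found in 1.99% and 3.01%. None of the 6 motifs contains another.

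Gained peaks lay away from TSSs. Of the 755, 166 were at promoters (22.0%, 19.1 to 25.1%), 275 elsewhere in a gene (36.4%) and 314 outside genes (41.6%). A TSS lay under 9.14% of them (7.18 to 11.4%), against 27.3% of peaks with MTF2 in shCT and 16.8% of those with none. Promoters took 38.9% of the peaks with MTF2 in shCT and 24.9% (23.1 to 26.7%) of those with none, and the latter interval overlapped that of the gained peaks. Of the 275 inside genes, 86 overlapped an exon. Shares by chromosome ranged from 7.14% of the PHF19 peaks of chromosome 13 (1.98 to 17.3%) to 18.0% of chromosome 6 (14.9 to 21.4%), which held 100 gained peaks.

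Gained peaks had other PHF19 peaks nearby about as often as those with MTF2 in shCT, and more often than those with none. Another PHF19 peak lay within 20 kb of 64.9% of them (61.4 to 68.3%), of 64.7% of peaks with MTF2 in shCT and of 48.7% of peaks with none. One with MTF2 in shCT lay within 20 kb of 42.4% (38.8 to 46.0%), 52.2% and 22.6%, and of 39.3% of all PHF19 peaks. With peaks at most 20 kb apart joined into runs, 343 gained peaks (45.4%) were in runs that also held a PHF19 peak with MTF2 in shCT, 265 (35.1%) were alone, 96 (12.7%) were with peaks of no MTF2 only, and 51 (6.75%) were in runs of gained peaks only. The run with the most gained peaks was at AKAP12, which encodes a scaffold protein of protein kinase A, at chr6:151560651-151674951. There 8 gained peaks were interspersed over 114 kb with 10 that had MTF2 in shCT. The TSS end of this run held an MTF2 peak in shCT and in sh#2. Gained peaks lay from 7.27 to 114 kb into the gene, with PHF19 scores of 59.6 to 226.63. They lay wholly or partly under sh#2 MTF2 peaks with scores of 53.44 to 234.72. The gained peak chr6:151590123-151591394 met only the end of the sh#2 peak of score 53.44, chr6:151586721-151590156. A single sh#2 peak of 17245 bp covered 2 of the gained peaks together with PHF19 peaks that had MTF2 in shCT. TIAM2, an activator of the GTPase Rac, had 5 gained peaks and 3 with MTF2 in shCT. MARCH10, a ubiquitin ligase, had 4 and 5, and 1 with no MTF2. These 3 genes had the most gained peaks.

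The gained peaks of highest PHF19 score lay far below the top of the sh#2 MTF2 list. NRXN2 encodes a neurexin, a presynaptic adhesion protein, and held the highest score among gained peaks (407.33, rank 69 of 5621) at chr11:64441855-64446315, 13.0 kb from the nearest TSS and over an exon. An sh#2 MTF2 peak with a score of 99.26 covered 89.0% of it, and the nearest shCT MTF2 peak was 5.06 kb away. At the promoter of TMCC2, which encodes a transmembrane coiled-coil protein, the peak chr1:205193075-205198247 had a score of 403.74, and shCT MTF2 was 113 kb away. TTBK1, which encodes a neuronal tau kinase, had the widest gained peak (7809 bp, chr6:43208436-43216244, score 301.78), wholly under an sh#2 MTF2 peak of 19079 bp. The others of the 10 highest lay in PRKAG2, a subunit of AMP-activated kinase (331.45), HEY2 (310.64), SKAP1, a T cell adaptor (296.26), SCML4, a Polycomb-related protein (268.23), GNAL, an olfactory G protein subunit (260.54), CTNNB1 (254.06), and between genes near the long non-coding RNA FBXO3-AS1 (241.38). All 10 had sh#2 MTF2 peaks with scores of 77.84 to 222.73 and ranks of 4701 to 12539, none of which reached an shCT MTF2 peak.

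Of the 10 gained peaks with the highest sh#2 MTF2 scores, 8 lay under an sh#2 peak that also reached over an shCT MTF2 peak. Of all gained peaks, 22.1% did. The score belongs to the whole sh#2 peak, so a sort by it favours such joined peaks. The highest was at the promoter of LINC01749, a long non-coding RNA, where a peak of 20693 bp had a score of 2068.57. In the other two, an sh#2 peak of 10750 bp with a score of 1254.59, 11014 and 15834 bp from the CCDC167 TSS, covered both chr6:37478683-37483400 and chr6:37483503-37486521, with no shCT MTF2 peak under it. The PHF19 scores of these 10 were 54.18 to 113.76.

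The arrangement of gained and other peaks differed between loci. HEY2 encodes a transcriptional repressor downstream of Notch. Its promoter held a PHF19 peak of 7417 bp with a score of 1147.08, the second highest of the list, with MTF2 in shCT and in sh#2. The gained peak lay 10.5 to 13.6 kb downstream, at the end of the gene (chr6:126079337-126082416), under an sh#2 MTF2 peak of 2037 bp with a score of 130.76, and 4 nearby PHF19 peaks had no MTF2. At ATF3, a stress-induced transcription factor, 1 of the 8 PHF19 peaks of the gene had gained MTF2. It lay beside the peak of highest score (1054.26), which had MTF2 in both lists, and 243 bp from the shCT MTF2 peak, under a separate sh#2 peak of 4787 bp with a score of 408.68. Another 2 PHF19 peaks of the gene (366.57, at the upstream promoter, and 112.85) had MTF2 in shCT and none in sh#2.

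FOXF2, a forkhead factor of mesenchyme, had 2 gained peaks and no other PHF19 peak. They lay at its promoter (score 72.62) and at its 3′ end (60.57), both under 1 sh#2 MTF2 peak of 21244 bp with a score of 808.37 that touched no shCT MTF2 peak. The nearest shCT MTF2 peak was 2340 bp from the downstream gained peak. At CTNNB1, which encodes beta-catenin, the effector of canonical Wnt signalling, 2 gained peaks with PHF19 scores of 212.73 and 254.06 covered the promoter. Their sh#2 MTF2 peaks had scores of 75.82 and 93.66, and the nearest shCT MTF2 peak was 576842 bp away. These 4 loci were chosen after their values were seen.

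**Figure D5:**
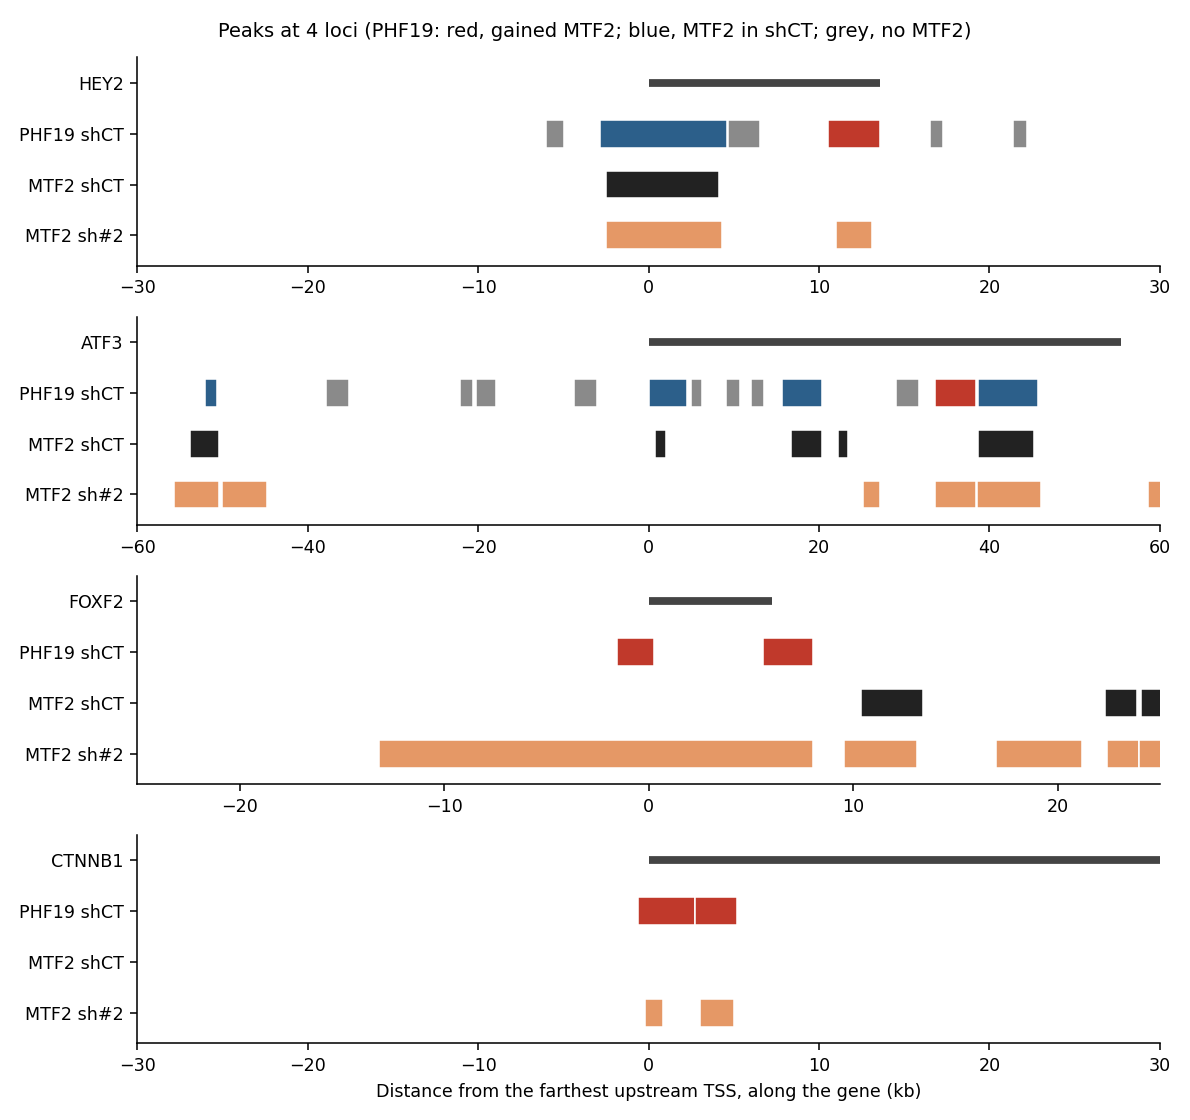
Peaks of PHF19 in shCT and of MTF2 in shCT and sh#2 at HEY2, ATF3, FOXF2 and CTNNB1, drawn to scale by distance (kb) from the farthest upstream TSS along the gene, with the gene as a grey bar and PHF19 peaks in red (gained MTF2), blue (MTF2 in shCT) or grey (no MTF2). The single sh#2 peak of 21244 bp covers both gained peaks at FOXF2, and no shCT MTF2 peak is in view at CTNNB1.

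Each pathway list held few genes with a gained peak at the promoter or in the gene. Of the 24177 genes placed on the genome, 393 (1.63%) had one, 176 of them at the promoter, and of the 726 genes of the lists other than the ribosomal control list 25 (3.44%) had one. Of the genes with any PHF19 peak, these were 16.7% of 2347 (15.3 to 18.3%) and 15.4% of 162 (10.2 to 21.9%), and these intervals overlapped. Of 19 Wnt ligands, 3 had a gained peak: WNT2, WNT2B and WNT9A. The peak inside WNT9A, at the promoter of the microRNA gene MIR5008, lay wholly under an sh#2 peak of 13414 bp that also reached an shCT MTF2 peak 150 bp away, whereas that of WNT2B (score 64.27) lay under a separate sh#2 peak with a score of 209.95. Among Wnt receptors and modulators, FZD3, a Frizzled receptor, and LGR6, a receptor for R-spondins, had 1 each. The FZD3 promoter peak had MTF2 in shCT, and its gained peak, 3710 bp from the TSS, was covered for 33.2% by an sh#2 peak of 983 bp.

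Of 24 SOX and GATA factors, SOX21, GATA4 and GATA6 had gained peaks. GATA4, a cardiac and endodermal factor, had 2, under sh#2 MTF2 peaks with scores of 78.57 and 416.61. GATA6, of the same family, had 1 over its promoter (PHF19 score 55.01, sh#2 score 86.64), 124225 bp from shCT MTF2. Of 16 T-box factors, only 2 had a PHF19 peak (100% gained, interval 15.8 to 100%). TBX21, the regulator of type 1 helper T cells, and TBR1, a cortical neuron factor, had 1 gained peak each. They lay 21466 and 924125 bp from shCT MTF2, and neither gene had a PHF19 peak with MTF2 in shCT. HOX genes had 1 of 39, HOXC11, at a peak inside the gene that is within the promoter of the antisense RNA HOTAIR. Homeobox genes outside HOX had 2 of 91, the neural factor POU3F2 (PHF19 score 110.74, 510615 bp from shCT MTF2) and the cardiac factor NKX2-6.

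The remaining genes of the lists had 1 gained peak each. BMP6 is a bone morphogenetic protein, CD247 the zeta chain of the T cell receptor, EPHB6 an Eph receptor, PLXNA2 a semaphorin receptor, and FBLN2 and LAMA3 encode matrix proteins. KCNH2 and KCNQ1 encode cardiac potassium channels. The KCNH2 peak lay at the promoter (PHF19 score 116.19, sh#2 score 89.59), 79803 bp from shCT MTF2. No gained peak was at the 17 erythroid transcription factors, the 30 genes of the red cell membrane, the 26 of heme, globin and iron, the 17 of megakaryocytes, the 20 CDK inhibitors and antiproliferative genes, the 32 subunits of PRC2 and PRC1 placed, or the 41 ribosomal proteins. Nor was any at the FGF ligands (22), the neural helix-loop-helix factors (28), or the antagonists and receptors of BMP and activin (25). No gene of heme, globin and iron had a PHF19 peak at all, and the other lists had 1 (megakaryocytes) to 7 (helix-loop-helix factors) such genes, too few to set 0 gained apart from the 16.7% over all such genes. CDKN1A, FOXC1, WNT4, NODAL and NOTUM, which the study examined, each had 1 PHF19 peak, all with MTF2 in shCT, and PLCG2 and PDGFRA had none at the promoter or in the gene. A gained peak at chr16:81798223-81800013 (PHF19 score 61.03, sh#2 score 88.59) lay 12.9 kb from the PLCG2 TSS, between genes.

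Genes with a gained peak had low RNA levels across the 6 libraries. The mean normalized count, taken over shCT, sh#1 and sh#2 together, had a median of 7.39 (5.29 to 10.8) for the 393 genes, and 53.4% (48.4 to 58.5%) were under 10. Genes whose PHF19 peaks had MTF2 in shCT and none gained had 6.90 (5.84 to 8.63) and 54.9% (51.9 to 57.7%). Genes with PHF19 peaks of no MTF2 only had 429 (288 to 601) and 21.9% (19.0 to 24.9%), and genes with no PHF19 peak 40.4 (35.4 to 45.6) and 42.1%. Per kb of exon, the same medians were 1.98, 1.74, 85.8 and 15.7. Among protein-coding genes only, the median counts of these sets were 9.44, 8.78, 677 and 262, with 50.7, 52.1, 18.6 and 32.8% under 10. Under a count of 1 were 27.2% of the 393 genes and 29.4% of all 24177, and under 100 were 78.4% and 55.6%. The low level held for the 217 genes with a gained peak and no PHF19 peak with shCT MTF2, with a median of 9.05 (5.29 to 16.1). The 176 genes with a gained peak at the promoter had a median of 14.9 (6.38 to 35.9) and 46.6% (39.1 to 54.2%) under 10.

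Some genes with a gained peak were well expressed. KCNH2 had a mean normalized count of 11446, CTNNB1 8799 and SLC35F2, a solute carrier with 3 gained peaks, 2763. TBX21, LAMA3, TTBK1 and FOXF2 had 0.335, 0.849, 0.335 and 0. Being means over all 6 libraries, these levels say nothing of a change on depletion.

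The gained peaks nearest the limits of the rule shared 11, 23 and 25 bp with an sh#2 MTF2 peak, at DNAAF1, near MIR196A1 and at SLC35F2, and the nearest shCT MTF2 peaks were 4, 5 and 18 bp away, at SLC22A23, C1orf186 and MAP6. Just outside it, PHF19 peaks at ANKS4B, SPATS1 and RCAN3 shared 2, 9 and 20 bp with an shCT MTF2 peak, and those near SLC22A11 and NPC1 and at DGKI were 9, 11 and 15 bp from an sh#2 MTF2 peak.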

How the data were processed

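K562 cells with shCT or an shRNA against PHF19 were grouped by their labels. ChIP-seq reads were aligned by the authors to hg19 and, for the Drosophila spike-in, dm3 (Bowtie), with peak calling by MACS. Each deposited peak has coordinates and a score but no tag count or signal, so the spike-in and the study's minimum of tags could not be applied. The PHF19 list has sh4 in its heading, as does the sh#2 MTF2 list, and both MTF2 lists have IgG in theirs. Whether the PHF19 peaks were called against depleted cells is not stated. For RNA-seq the authors used TopHat and DESeq2 and deposited a mean normalized count per gene over all 6 libraries. They also deposited the fold changes, standard errors, statistics and p-values of their own comparison, which were not used. Their tool versions were not given in the sources used here, and depth per library is unknown. Tools and builds are named after the study's methods and the notes of the submitters on processing.

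Overlaps of at least 1 bp were counted with scipy 1.17.1, numpy 2.4.6 and pandas 2.3.3 under Python 3.11.15. Shares have exact (Clopper-Pearson) and medians order-statistic 95% intervals. Genes were placed by basic transcripts of GENCODE 44 on GRCh37. Of 27348 symbols 24177 were placed, 1014 of them by an older symbol, and 77 on several chromosomes were dropped. A peak was given to a promoter (2.5 kb around a TSS), then to the rest of a gene (from 2.5 kb upstream), then to no gene. The central 300 bp were searched for motifs. Named peaks were the 10 highest by PHF19 and by sh#2 score, the 5 widest and those at the limits of the rule, with genes of 27 lists and of the study. Members and lists were chosen with earlier results of these data known. No test was made, as each condition had 1 ChIP library. The steps were tested on simulated data. Alternatives were other list sizes, scores, overlaps, margins and definitions. A gene and a sequence that the rules take are not reported here. IgG ChIP-seq and PHF19 ChIP-seq of sh#1 and sh#2 were not analysed here. Figures were drawn with matplotlib 3.10.9.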

Additional observations from a re-analysis of the deposited data

How the results depend on the processing

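Of 60 values computed under alternatives, 32 stayed within the interval of the reported value, or within 1.5 times of it for counts, and 28 moved. With equal list sizes, gained peaks were 9.78% of PHF19 peaks, 28.4% had an sh#2 peak that also reached an shCT peak, and the median gap to shCT MTF2 was 4569 bp. With PHF19 peaks at or above the median score only, 324 peaks (11.5%) had gained MTF2, with 25.9% at promoters, 18.8% joined, 43.5% with a CpG-island-like window, a gap of 8340 bp, a width of 1912 bp and 45.0% GC. With sh#2 peaks at or above the median score, the values were 379 peaks, 6.74%, 37.2% joined, 3290 bp and 46.3% GC. At a cover of at least 50%, 12.3% had gained MTF2. With no shCT MTF2 peak within 1 kb, the values were 10.6%, 8.42% joined and 11563 bp. With only sh#2 peaks that touched no shCT peak, an alternative chosen after seeing the data, they were 10.5%, 0% joined by construction and 11911 bp. Promoters of 1 kb took 15.4%, and the stricter window (500 bp, 55% GC, ratio 0.65) was in 12.6%. Promoters alone gave 176 target genes, and 27.2% and 78.4% of target genes were under a mean normalized count of 1 and of 100. A restriction to autosomes and X could not change a value, since the lists hold no other chromosome, and is not counted. Each other alternative takes fewer peaks or another definition by its construction. No paired analysis was possible because each ChIP condition had 1 library and the RNA table used here gives a mean over all libraries. The lists carry no depth, so what depth limits was not tested.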
